A study of Mus musculus with 12 samples.

Results

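The genes described here serve oxidative protein folding in the endoplasmic reticulum (ER) and the unfolded protein response. They are the 10 genes Ero1l, Ero1lb, Pdia3, Pdia4, Pdia6, Hspa5, Hsp90b1, Xbp1, Ddit3 and Atf4, picked by name from the 56350 genes of an RNAseq count table. The name Ddit3 stood on a second row of 105 bases that lies inside the exons of the Ddit3 gene and held 0 counts in all 12 libraries, so that 11 rows carried a name and 10 were used. All 10 genes were among the 16484 that passed the filter on low counts (more than 10 counts in at least 3 libraries).

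The libraries were made from MPC2, a clonal, conditionally immortalized mouse mesenchymal line, with 3 libraries in each of 4 conditions. Undifferentiated mesenchymal stem cells (MSCs) were kept at 33 °C. Osteocytes were the same line after 3 weeks at 37 °C in osteogenic media. Both were treated for 48 hours with DMSO vehicle or with 50 µM FG-4592 (Roxadustat), which inhibits the prolyl hydroxylases that mark hypoxia-inducible factor (HIF) for breakdown. Temperature, media and differentiation changed together and cannot be told apart, whereas drug and vehicle were compared within a cell type. The 12 libraries come from a single clone and the labels do not state that replicates were separate cultures, so that p-values measure only the spread between these samples, which may be technical.

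Proteins that enter the ER fold there with the help of chaperones, and many are held together by disulfide bonds. Protein disulfide isomerases (PDIs) pass disulfides to the folding chains and are themselves reoxidized by the ERO1 oxidases, which hand the electrons to oxygen. When unfolded proteins accumulate, 3 sensors (IRE1, PERK and ATF6) start the unfolded protein response: IRE1 splices Xbp1 mRNA, PERK raises the translation of Atf4 and through it the transcription of Ddit3, and ATF6 with XBP1 raises the chaperones. Cells of the bone lineage, which secrete large amounts of collagen, depend on this machinery.

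Library totals ranged from 52829185 to 68108470 counts, which puts a floor of 3 counts at 0.0447 to 0.0545 CPM (counts scaled to a common total, using TMM-scaled library sizes). This floor covers counting error only. All 11 genes of a list of known HIF targets rose with FG-4592 in osteocytes and 9 of 11 rose in MSCs, with none lower. By the same test, described below, 21.9% of all genes rose in osteocytes and 17.6% in MSCs. Of the 6 osteocyte markers listed, Dmp1 and Phex were higher in vehicle-treated osteocytes than in vehicle-treated MSCs. In MSCs Dmp1 averaged 1.19 CPM without the drug and 0.215 with it, and in osteocytes 11.2 and 2.06. Phex averaged 0.977 and 0.344 in MSCs, and 57.6 and 2.83 in osteocytes. Fgf23 was not higher in osteocytes in vehicle, where it averaged 0.0475 CPM in MSCs and 0.0251 in osteocytes, near or below the floor, and it averaged 1.61 in FG-4592-treated osteocytes. Sost was at 0 in every library and Mepe did not exceed 2 counts. Pdpn has 2 rows, on 2 sequences of the assembly, with 1 count in all, and gives no information. In the osteocyte libraries 4 of 5 adipocyte markers (Adipoq, Plin1, Fabp4 and Cfd) were high, while Lep did not exceed 3 counts in any library. Summed over the 5, adipocyte markers stood at 11.1 to 12.4 CPM in vehicle-treated MSCs, 6.36 to 7.64 in FG-4592-treated MSCs, 1808 to 2537 in vehicle-treated osteocytes and 2121 to 2518 when osteocytes had FG-4592.

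The promoters of the genes were searched for the letters of known elements, in the 250 bases before each start in RefSeq (GRCm38.p6; all 10 matched, Ero1l and Ero1lb under the symbols Ero1a and Ero1b). The elements were chosen after earlier results were known. HIF binds the core ACGTG or GCGTG. On either strand 38.6% of 32851 promoters held at least 1 of these cores, and 8 of the 10 genes did (all but Pdia4 and Xbp1). Ero1l, Pdia6 and Atf4 each held 3. Those of Ero1l are shown here in capitals within 30 bases each, as the gene described first, and the last is ACGTG read on the other strand.

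Ero1l at chr14:45318683-45318712, minus strand, core 128 bases before the start: ccggaggcgggtGCGTGagcggggcgcgca

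Ero1l at chr14:45318643-45318672, minus strand, core 88 bases before the start: cgcccgaggctcGCGTGgacagaggcgcgc

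Ero1l at chr14:45318618-45318647, minus strand, core 63 bases before the start: cgcgcgccgctgCACGTccgcaggggaggc

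The ER stress response element, bound by ATF6 and XBP1, reads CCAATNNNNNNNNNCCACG. On either strand 0.113% of all promoters held it, against 4 of the 10 genes: Hspa5, Hsp90b1, Ero1lb and Pdia6. Those of Hspa5 and Hsp90b1 are shown in capitals because both encode major ER chaperones. Hsp90b1 held the element in both directions, and each copy overlaps a GCGTG core of either strand. Its sequence is printed up to the first base of its Gencode gene model, which starts 65 bases before the RefSeq start.

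Hspa5 at chr2:34772020-34772049, plus strand: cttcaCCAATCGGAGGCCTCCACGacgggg

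Hsp90b1 at chr10:86705510-86705694, minus strand: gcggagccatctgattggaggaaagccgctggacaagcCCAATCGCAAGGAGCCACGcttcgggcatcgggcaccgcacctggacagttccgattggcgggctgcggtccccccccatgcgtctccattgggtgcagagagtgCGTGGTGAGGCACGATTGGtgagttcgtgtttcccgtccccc

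A match describes the letters only, and no binding was measured here. Of the windows searched, 199 bases for Ero1l, 127 for Pdia3 and 120 for Hspa5 lie inside the Gencode gene model, whose starts lie upstream of those in RefSeq. All Ero1l cores and the Hspa5 element shown above lie within those bases. The composite element TGATGNAA, which ATF4 and C/EBP factors bind, was in 3.45% of promoters and in none of the 10.

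The genes were then compared between FG-4592 and vehicle in each cell type. A gene is said to rise or fall at a false discovery rate (FDR) under 0.05 in edgeR's quasi-likelihood test, adjusted over the 16484 genes. In MSCs 5 of the 10 genes rose (Ero1l, Ero1lb, Hsp90b1, Ddit3 and Atf4), 1 fell (Pdia6) and 4 did not pass the test. Of all genes tested there, 17.6% rose and 20.4% fell. In osteocytes 4 rose (Ero1l, Hsp90b1, Xbp1 and Atf4), 1 fell (Pdia3) and 5 did not pass, where 21.9% of all genes rose and 22% fell. Levels of cell type markers also differed between FG-4592 and vehicle, and are given with no test. In osteocytes the 6 osteocyte markers summed to 61.4 to 76.7 CPM in vehicle and 6.06 to 7.00 in FG-4592, and the 4 chondrocyte markers to 108 to 128 and 367 to 445. Col2a1 averaged 62.7 and 294 there and Sox9 51.7 and 119, while Acan, a defining cartilage gene, did not exceed 3 counts in any library. In MSCs the chondrocyte sum was 82.8 to 92.2 in vehicle and 148 to 164 in FG-4592. The 8 osteoblast markers, a sum made up mostly of Col1a1 and Spp1, stood at 6134 to 6571 and 7294 to 7457 in MSCs and at 7790.0 to 9656 and 7444 to 9135 in osteocytes. Of these, Spp1 averaged 3156 and 4511 in MSCs and 5510 and 5238 in osteocytes, and Col1a1 averaged 2799 and 2693, and 2749 and 2971. Ibsp averaged 59.6 and 3.43 in MSCs and 35.6 and 12.2 in osteocytes, and Alpl averaged 76.6 and 19.2, and 61.0 and 34.4. Sp7, Runx2, Bglap and Bglap2 also averaged lower in FG-4592 than in vehicle in both cell types. The 7 progenitor markers summed to 756 to 767 and 856 to 877 in MSCs and to 718 to 761 and 929 to 957 in osteocytes. Its most abundant members did not all move one way. Ly6a averaged 216 and 396.0 in MSCs and 55.8 and 319.7 in osteocytes, Pdgfra 292 and 234 in MSCs and 424 and 363 in osteocytes, Cd44 126 and 131 in MSCs and 117 and 104 in osteocytes, and Eng 127 and 106 in MSCs and 120.3 and 122 in osteocytes. The part of these differences in the results was not tested. At the study's cutoff of a change of more than 2-fold, Ero1l was the only one of the 10 called in either cell type. That cutoff was passed upwards by 4.12% and downwards by 5.17% of genes in MSCs, and by 6.25% and 4.26% in osteocytes. The median log2 fold change of the 10 was 0.31 in MSCs, where that of all genes was -0.05, and 0.12 in osteocytes, where that of all genes was 0.0015. Without Ero1l the median was 0.10 in MSCs and 0.05 in osteocytes.

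**Figure D1:**
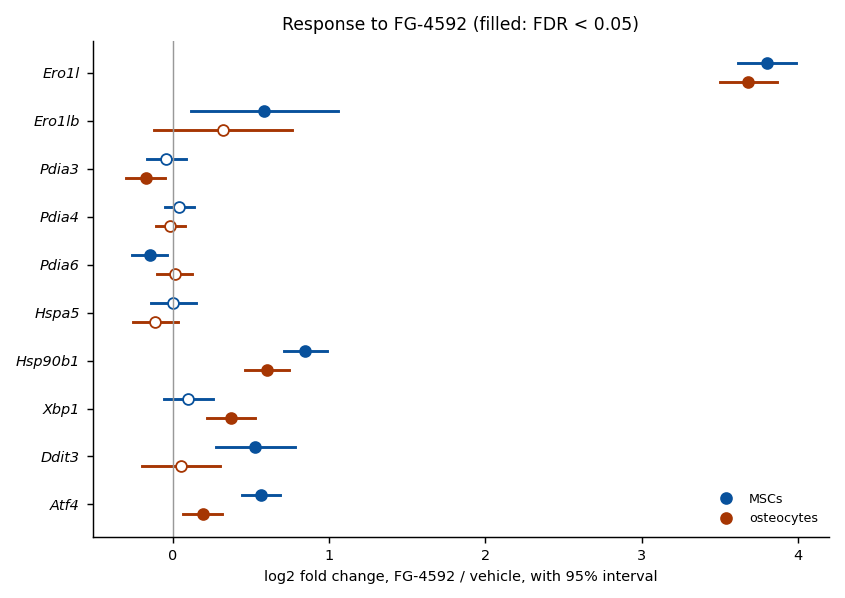
Log2 fold change of each of the 10 genes, FG-4592 over vehicle, with its 95% interval, in MSCs (blue) and osteocytes (brown); filled points passed FDR under 0.05. Ero1l stands at 3.80 and 3.68, Hsp90b1 at 0.85 and 0.60, and the intervals of Hspa5 and Pdia4 hold 0 in both cell types.

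Ero1l, the ERO1 oxidase found in most tissues, carried the largest change. In vehicle it stood at 44.9, 42.1 and 48.5 CPM in the 3 MSC libraries and at 65.1, 52.2 and 56.2 CPM in the osteocyte libraries. With FG-4592 it stood at 610.4, 635 and 648 CPM in MSCs and at 702, 820.0 and 709.7 CPM in osteocytes. Every treated library lay above every vehicle library of its cell type, as those of 50.5% of all genes did in MSCs and 51.8% in osteocytes (in either direction), and no libraries of the 4 conditions overlapped. In such bulk libraries a change in the share of cells of a type and a change in RNA per cell cannot be told apart. The fold change was 14.0 in MSCs (95% interval 12.3 to 15.9, log2 3.80 ± 0.0869 SE, n = 3 per condition, FDR 9.23e-15, edgeR) and 12.9 in osteocytes (11.3 to 14.6, log2 3.68 ± 0.0862, FDR 9.07e-15, edgeR). By fold change Ero1l ranked 88th from the top of 16484 genes in MSCs and 161st in osteocytes. By level per kilobase of exon it moved from rank 5064 to rank 304 in MSCs and from rank 4213 to rank 260 in osteocytes. The responses of the 2 cell types did not differ past the threshold (osteocyte minus MSC log2 -0.12, 95% interval -0.35 to 0.12, FDR 0.488, edgeR).

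Ero1lb, the paralog best known from the insulin-producing cells of the pancreas, was the least expressed of the 10. It stood at 1.80, 1.64 and 2.58 CPM in vehicle-treated MSCs and at 3.69, 2.49 and 2.87 CPM in FG-4592-treated MSCs. In osteocytes it stood at 4.55, 5.36 and 3.64 CPM in vehicle and at 4.54, 6.20 and 6.14 CPM in FG-4592. The treated and vehicle libraries overlapped in both cell types. The fold change was 1.50 in MSCs (95% interval 1.08 to 2.08, FDR 0.0472, edgeR) and 1.25 in osteocytes (0.917 to 1.69, FDR 0.241). The MSC call was lost on leaving out any of 6 libraries (log2 0.42 to 0.62, FDR 0.0537 to 0.196): vehicle-treated MSC replicates 1 and 2, FG-4592-treated MSC replicates 1 and 3, and FG-4592-treated osteocyte replicates 2 and 3. It was also lost with library size alone (log2 0.50, FDR 0.0859) and with the replicate block (log2 0.59, FDR 0.0714).

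The balance between the 2 oxidases is given by their ratio, with no test. Per kilobase, Ero1l exceeded Ero1lb 29.2-fold ± 4.76 (SD, n = 3) in vehicle-treated MSCs and 271-fold ± 57.6 in FG-4592-treated MSCs. In osteocytes the ratio was 16.6 ± 3.78 in vehicle and 169 ± 24.6 in FG-4592. The lowest treated library of each cell type lay above the highest vehicle library (208 against 32.4 in MSCs, 145 against 19.4 in osteocytes).

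Pdia3, Pdia4 and Pdia6 encode PDI family members, of which Pdia3 (ERp57) works on glycoproteins with calnexin and calreticulin. Pdia3 stood at 803, 787 and 819 CPM in vehicle-treated MSCs and at 761, 786 and 790.3 CPM in FG-4592-treated MSCs, which overlapped (log2 -0.04, 95% interval -0.17 to 0.08, FDR 0.611, edgeR). Osteocytes held 1074, 931 and 1068 CPM in vehicle and 941, 946 and 834 CPM in FG-4592. These libraries overlapped, and the fall by 0.18 on the log2 scale (FDR 0.0237, edgeR) was lost without vehicle-treated osteocyte replicate 1 or 3 or FG-4592-treated replicate 3 (log2 -0.16 to -0.12, FDR 0.0506 to 0.129) and in the fit of the 6 libraries compared (log2 -0.17, FDR 0.0666).

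Pdia4 stood at 172, 173 and 172 CPM in vehicle-treated MSCs and at 174, 174 and 183 CPM in FG-4592-treated MSCs. All 3 treated libraries lay above the vehicle libraries, by an amount too small for the test (log2 0.04, 95% interval -0.05 to 0.13, FDR 0.524, edgeR). Osteocytes held 318, 306 and 331 CPM in vehicle and 322, 313 and 309.6 CPM in FG-4592, which overlapped (log2 -0.02, -0.11 to 0.08, FDR 0.788). With library size alone this value passed the threshold as a fall (log2 -0.12, FDR 0.0429).

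Pdia6 stood at 334, 319 and 321 CPM in vehicle-treated MSCs and at 291, 289 and 298 CPM in FG-4592-treated MSCs, with no overlap. This was a fall by 0.15 on the log2 scale (FDR 0.035, edgeR), and the call was lost on leaving out any of 9 of the 12 libraries, all 6 MSC libraries among them (log2 -0.16 to -0.10, FDR 0.0504 to 0.223). The other 3 were vehicle-treated osteocyte replicate 2 and FG-4592-treated osteocyte replicates 1 and 2. It was also lost with the likelihood ratio test (FDR 0.0521) and the replicate block (FDR 0.0529). Osteocytes held 409, 432 and 470.5 CPM in vehicle and 459, 443 and 421 CPM in FG-4592 (log2 0.01, 95% interval -0.10 to 0.12, FDR 0.877).

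The summed level per kilobase of these 3 PDIs was set against that of Ero1l, with no test. It was 48.6 ± 2.85 times that of Ero1l (SD, n = 3) in vehicle-treated MSCs and 3.35 ± 0.0424 times in FG-4592-treated MSCs. In osteocytes the ratio was 52.9 ± 4.91 in vehicle and 3.84 ± 0.325 in FG-4592.

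Of the 2 main ER chaperones Hsp90b1 passed the test in both cell types and Hspa5 in neither, and the difference between these genes was not tested. Hspa5 encodes BiP, the HSP70 chaperone that also holds the stress sensors inactive and is widely used as the readout of the unfolded protein response. It stood at 752, 722 and 804 CPM in vehicle-treated MSCs and at 739, 742 and 801 CPM in FG-4592-treated MSCs, which overlapped throughout. The log2 fold change was 0.0027 (95% interval -0.14 to 0.15, FDR 0.984, edgeR). In osteocytes it stood at 1540.4, 1295 and 1579.7 CPM in vehicle and at 1431, 1346 and 1302 CPM in FG-4592 (log2 -0.11, 95% interval -0.26 to 0.03, FDR 0.195, edgeR). A rise beyond 1.11-fold in MSCs or 1.02-fold in osteocytes lay outside these intervals. The osteocyte value passed the threshold as a fall without vehicle-treated replicate 2 (log2 -0.21, FDR 0.0094, edgeR) and with scaling by library size alone (log2 -0.21, FDR 0.0184).

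Hsp90b1 encodes GRP94, the HSP90 chaperone of the ER, with integrins, Toll-like receptors and IGFs among its clients. It stood at 809, 773 and 811 CPM in vehicle-treated MSCs and at 1413, 1386 and 1506 CPM in FG-4592-treated MSCs. In osteocytes it stood at 1278, 1056 and 1215 CPM in vehicle and at 1835, 1893 and 1659.9 CPM in FG-4592. Treated libraries lay above vehicle libraries in both cell types, with no overlap between any of the 4 conditions. The fold change was 1.80 in MSCs (95% interval 1.63 to 1.98, FDR 3.32e-08, edgeR) and 1.52 in osteocytes (1.38 to 1.67, FDR 1.32e-06, edgeR). Of its 4032 exonic bases, 632 are shared with other genes, 415 of them with 1810014B01Rik, which averaged 2.09 to 2.87 CPM over the 4 conditions, and the rest with Gm25745 (133) and Gm15344 (84). The ratio of Hspa5 to Hsp90b1 per kilobase was 0.907 ± 0.0327 in vehicle and 0.506 ± 0.00623 in FG-4592 in MSCs, and 1.19 ± 0.0478 and 0.723 ± 0.0391 in osteocytes, with no overlap between libraries (SD, n = 3). Each ratio counts the shared bases of Hsp90b1 in its length, so that it may be too high if reads there are missing.

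**Figure D2:**
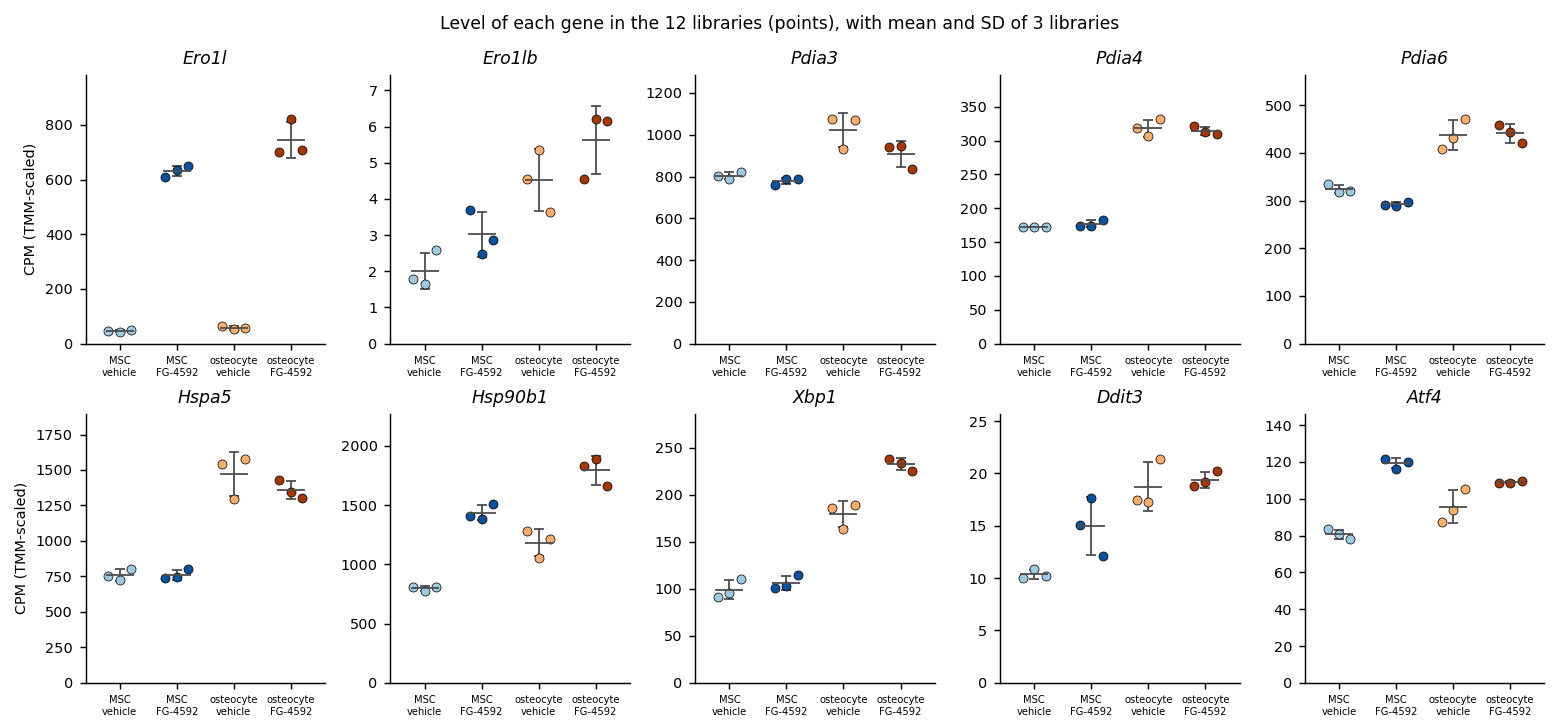
CPM (TMM-scaled) of each gene in the 12 libraries, with each panel starting at 0; points are libraries, bars the mean and SD of 3. Ero1l and Hsp90b1 were higher in FG-4592 in both cell types, whereas the Hspa5 and Pdia4 libraries of the 2 treatments lie close together within each cell type.

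Xbp1, the transcription factor whose mRNA is spliced by IRE1, stood at 91.2, 95.9 and 109.9 CPM in vehicle-treated MSCs and at 100.5, 103 and 114 CPM in FG-4592-treated MSCs, which overlapped (log2 0.10, 95% interval -0.06 to 0.25, FDR 0.318, edgeR). Without vehicle-treated MSC replicate 3 the value passed the threshold (log2 0.21, FDR 0.0291). The osteocyte libraries held 186, 164 and 189 CPM in vehicle and 238, 234 and 225 CPM in FG-4592. The treated libraries all lay above the vehicle libraries, and the fold change was 1.29 (95% interval 1.16 to 1.44, FDR 0.000485, edgeR). Counts per gene do not separate spliced from unspliced Xbp1.

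Atf4, the transcription factor of the integrated stress response, stood at 83.3, 80.8 and 78.3 CPM in vehicle-treated MSCs and at 122, 116 and 120.1 CPM in FG-4592-treated MSCs. Its fold change was 1.48 (95% interval 1.36 to 1.61, FDR 1.02e-06, edgeR). In osteocytes it stood at 87.5, 94.0 and 105 CPM in vehicle and at 108, 109 and 109.7 CPM in FG-4592. There too the treated libraries lay above the vehicle libraries, by 1.14-fold (1.05 to 1.24, FDR 0.0142, edgeR). The osteocyte call was lost with scaling by library size alone (log2 0.09, FDR 0.206) and without vehicle-treated osteocyte replicate 1 (log2 0.11, FDR 0.0984) or 2 (log2 0.16, FDR 0.0589).

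Ddit3 encodes CHOP, a transcription factor downstream of ATF4 that favours cell death under lasting stress. It was low, at 10.0, 10.9 and 10.2 CPM in vehicle-treated MSCs and at 15.0, 17.7 and 12.1 CPM in FG-4592-treated MSCs. Treated and vehicle libraries did not overlap, and the fold change was 1.44 (95% interval 1.21 to 1.72, FDR 0.00225, edgeR). The osteocyte libraries held 17.5, 17.3 and 21.4 CPM in vehicle and 18.8, 19.2 and 20.2 CPM in FG-4592, which overlapped (log2 0.05, 95% interval -0.20 to 0.30, FDR 0.771). Of its 1713 exonic bases, 186 are shared, 105 with the second row of its name, 68 with Mars and 13 with Gm4189. The shared bases of Pdia3 (18, with Catsper2), Pdia4 (14, with Mir704) and Pdia6 (50, with Atp6v1c2) are few, and the other 5 genes share none.

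Whether osteocytes and MSCs responded to a different extent was tested as an interaction. Atf4 and Ddit3 had a smaller response in osteocytes, by -0.37 ± 0.0822 (log2 ± SE, FDR 0.00325, edgeR) and by -0.48 ± 0.167 (FDR 0.0489), and the other 8 genes did not pass the test. Among all genes 13.3% had a higher and 11% a lower response in osteocytes. The Ddit3 call was lost on leaving out any of 8 libraries (log2 -0.52 to -0.34, FDR 0.0563 to 0.138), all but vehicle-treated MSC replicate 2, FG-4592-treated MSC replicate 3 and vehicle-treated osteocyte replicates 1 and 2, and with the replicate block (FDR 0.0697), whereas that of Atf4 was kept in all 12 such fits (log2 -0.48 to -0.30). For Hsp90b1 the difference was -0.24 (95% interval -0.44 to -0.05, FDR 0.0651), and for Xbp1 it was 0.27 (0.06 to 0.49, FDR 0.0638). The Hsp90b1 difference passed the threshold without vehicle-treated MSC replicate 1 or 3, vehicle-treated osteocyte replicate 2 or FG-4592-treated osteocyte replicate 2 (log2 -0.36 to -0.29, FDR 0.00361 to 0.0443), and also under DESeq2 (FDR 0.0253), RLE factors (FDR 0.0447) and no filter (FDR 0.0101). The Xbp1 difference passed it without FG-4592-treated MSC replicate 3 or vehicle-treated osteocyte replicate 3 (log2 0.31 to 0.33, FDR 0.0336 to 0.0497), and also with no filter (FDR 0.00624) and the replicate block (FDR 0.0487). Single libraries also brought a difference past it for 3 more genes: Pdia3 (log2 -0.24, FDR 0.0281) and Hspa5 (log2 -0.25, FDR 0.0366) without vehicle-treated osteocyte replicate 2, and Pdia6 (log2 0.22, FDR 0.0333) without vehicle-treated osteocyte replicate 3. The median difference of the 10 was -0.13, where that of all genes was 0.05.

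Osteocytes were next compared with MSCs of the same treatment. In vehicle all 10 genes were higher in osteocytes, and the osteocyte libraries of every one lay above its MSC libraries. Of all genes tested, 26% were higher and 24.9% lower, and 56.9% had libraries that did not overlap. The median log2 fold change of the 10 was 0.71, where that of all genes was -0.0064. Ero1lb had the largest difference, at 2.25-fold (95% interval 1.63 to 3.10, FDR 0.000309, edgeR). Hspa5 was 1.94-fold higher (1.75 to 2.14, FDR 7.52e-09), Pdia4 1.85-fold (1.73 to 1.97, FDR 8.92e-11), Xbp1 1.81-fold (1.63 to 2.02, FDR 6.06e-08) and Ddit3 1.81-fold (1.51 to 2.16, FDR 1.81e-05). The other 5 ranged from 1.18-fold for Atf4 to 1.48-fold for Hsp90b1, with Ero1l at 1.28-fold (1.14 to 1.44, FDR 0.00139).

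In FG-4592 9 of the 10 genes were higher in osteocytes, where 30.5% of all genes were higher and 25.3% lower and 64.1% had libraries that did not overlap. Xbp1 led, at 2.19-fold (95% interval 1.97 to 2.44, FDR 1.55e-09, edgeR), followed by Ero1lb at 1.87-fold and Hspa5 at 1.79-fold. Atf4 was the exception. Its osteocyte libraries all lay below those of MSCs, at a log2 fold change of -0.13 that did not pass the test (95% interval -0.25 to -0.01, FDR 0.0649). It passed under RLE factors (FDR 0.0436), under DESeq2 (FDR 0.0394), with library size alone (FDR 0.0114) and in the fit of the 6 libraries compared (FDR 0.0146), and without vehicle-treated MSC replicate 1 or any 1 of the 3 vehicle-treated osteocyte replicates (log2 -0.15 to -0.13, FDR 0.0164 to 0.0463). The calls of 2 other genes rested on single libraries: that of Ero1l was lost without FG-4592-treated MSC replicate 1 (log2 0.21, FDR 0.0562) or FG-4592-treated osteocyte replicate 2 (log2 0.17, FDR 0.0823) and with library size alone (log2 0.19, FDR 0.0531), and that of Ddit3 without FG-4592-treated MSC replicate 3 (log2 0.25, FDR 0.0684). The summed adipocyte markers given above moved with these differences, and their part in them was not tested.

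**Figure D3:**
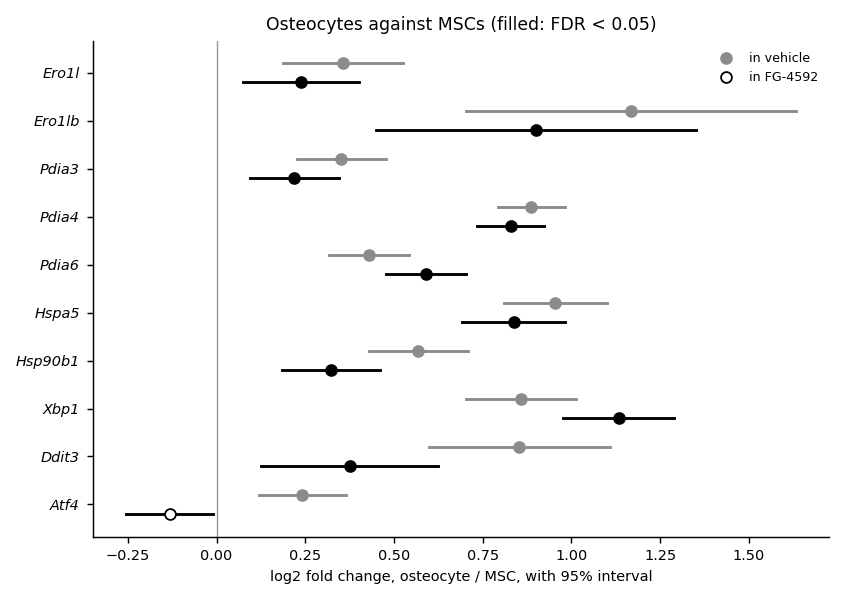
Log2 fold change of each gene, osteocytes over MSCs, with its 95% interval, in vehicle (grey) and in FG-4592 (black); filled points passed FDR under 0.05. All 10 genes lie to the right of 0 in vehicle, from 0.24 for Atf4 to 1.17 for Ero1lb, and only Atf4 lies to the left in FG-4592, at -0.13.

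Per kilobase, which allows levels of different genes to be compared, the order of the 10 was led by Pdia3 (256 ± 5.21 CPM per kb, SD, n = 3) in vehicle-treated MSCs, by Hspa5 (348 ± 36.5) in vehicle-treated osteocytes, and by Hsp90b1 in FG-4592-treated MSCs (356 ± 15.7) and osteocytes (445 ± 30.1). Ero1l held rank 8 of the 10 in both vehicle conditions, at 8.55 ± 0.612 CPM per kb in MSCs and 10.9 ± 1.24 in osteocytes, where Ddit3 was level with it at 10.9 ± 1.35. It held rank 4 in both FG-4592 conditions, at 119 ± 3.64 and 141 ± 12.5, above Pdia4 and Pdia6. Ero1lb was last throughout, from 0.301 ± 0.0756 in vehicle-treated MSCs to 0.846 ± 0.141 in FG-4592-treated osteocytes. These levels were divided by the full exonic length, though reads in shared exons may be missing from the counts. Of Hsp90b1 632 of 4032 exonic bases are shared, and of Ddit3 186 of 1713, so that both levels may be too low. The order of Hsp90b1 against Hspa5 and Pdia3, and of Ddit3 against Ero1l, is thus uncertain in vehicle-treated osteocytes. Together the 10 genes took 0.301% to 0.318% of the scaled counts in vehicle-treated MSCs, 0.423% to 0.448% in FG-4592-treated MSCs, 0.435% to 0.504% in osteocytes given vehicle and 0.560% to 0.613% in those given FG-4592.

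Across the 12 libraries the genes followed different courses, which Pearson's r of log2 CPM describes. The 12 points share 4 conditions, so that r mostly reflects the 4 means. Hspa5 and Pdia4 ran together (0.99), as did Pdia4 with Pdia6 (0.96) and with Xbp1 (0.95). Ero1l ran with Hsp90b1 (0.88) and Atf4 (0.86), and had an r of 0.02 with Hspa5 and 0.09 with Pdia4. Among 11243 protein-coding genes whose condition of highest level averaged 100 counts or more, those with the highest r were Egln1, Gbe1, Bnip3, Rora and Ppme1 for Ero1l (each rounding to 1.00), and Tiparp, Cebpg, Sema3a, Zbtb11 and Tspan12 for Hspa5 (each rounding to 0.99). For Atf4 they were Gphn, Hspa9, Tfrc, Prkar2b and Slc35e4 (0.97), and for Ddit3 C1galt1c1, Dpp7, Dmtn, Cpeb1 and Cars2 (0.93 to 0.96).

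The wider pathway was read from lists of further genes. Of 19 tested genes of the PDI family and thiol oxidation, 6 rose and 5 fell in MSCs, where 17.6% and 20.4% of all genes did. In osteocytes 6 of the 19 rose and 6 fell, where 21.9% and 22% of all genes did. None of the 19 passed the 2-fold cutoff. With library size alone 5 rose and 8 fell in each cell type. P4hb, the founding PDI and also the beta subunit of collagen prolyl 4-hydroxylase, rose in both cell types. It averaged 1132 CPM in vehicle and 2233 CPM in FG-4592 in MSCs (log2 0.98 ± 0.0400 SE, FDR 1.19e-11, edgeR), and 1087 and 1781 CPM in osteocytes (log2 0.71 ± 0.0398, FDR 4.58e-10). Tmx4, a membrane-bound thioredoxin-like protein, rose by 0.58 and 0.59 (log2, MSCs and osteocytes). Prdx4, the ER peroxiredoxin that removes the hydrogen peroxide made by ERO1, rose by 0.93 in osteocytes and by 0.35 in MSCs. Gpx8, an ER peroxidase, fell by 0.79 in MSCs (log2, FDR 3.72e-09, edgeR) and rose by 0.17 in osteocytes (FDR 0.0111). The osteocyte rise was lost with library size alone (log2 0.07, FDR 0.234) and without vehicle-treated osteocyte replicate 2 (log2 0.11, FDR 0.0853), and the difference between these responses was 0.97 (FDR 1.08e-07). Pdia2 and Gpx7 did not pass the filter.

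Of 25 ER chaperones and cochaperones, 6 rose and 7 fell in MSCs, where 17.6% and 20.4% of all genes did. In osteocytes 3 of the 25 rose and 8 fell, where 21.9% and 22% of all genes did. With library size alone these counts were 5 and 9 in MSCs and 2 and 12 in osteocytes. Sil1, the nucleotide exchange factor of BiP, rose by 0.46 in MSCs and 0.90 in osteocytes (log2, FDR 2.58e-06 and 6.73e-10, edgeR). Creld2 rose by 0.37 and 0.28, the latter call being lost with library size alone (log2 0.18, FDR 0.0717) and without vehicle-treated osteocyte replicate 1 (log2 0.22, FDR 0.0533). Of the prolyl isomerases, Fkbp7 fell in both cell types (log2 -0.29 in MSCs and -0.64 in osteocytes, FDR 0.0018 and 5.79e-07, edgeR). Fkbp14 fell in osteocytes (log2 -0.39, FDR 0.000248, edgeR) and stood at -0.03 in MSCs (FDR 0.812). Fkbp11 fell in MSCs (log2 -0.51, FDR 0.00719, edgeR) and stood at 0.04 in osteocytes (FDR 0.824). The difference between its responses (log2 0.56, FDR 0.0453) kept its call in 8 of 20 alternatives. Among fits without a single library it was kept without FG-4592-treated MSC replicate 1 and without vehicle-treated osteocyte replicate 2 or 3, and was lost without any of the others (log2 0.37 to 0.61 over these fits). Between the cell types in vehicle, 17 of the 25 were higher and 1 lower in osteocytes, with a median log2 fold change of 0.42, against 26% and 24.9% of all genes.

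Of 10 genes of stress sensors and their processing, 2 rose and 2 fell in MSCs, where 17.6% and 20.4% of all genes did. In osteocytes 3 of the 10 rose and 1 fell, where 21.9% and 22% of all genes did. With library size alone the counts were 2 and 4 in MSCs and 3 and 3 in osteocytes. Eif2ak3, which encodes PERK, rose by 0.36 and 0.34, and Creb3l1 (OASIS), an ER-anchored factor of bone cells, by 0.53 and 0.51 (log2, MSCs and osteocytes). Creb3l2 rose by 0.46 in osteocytes and stood at -0.13 in MSCs (FDR 0.0735, edgeR), where it passed the test with library size alone (log2 -0.22, FDR 0.00543). Atf6b fell by 0.35 in MSCs and 0.30 in osteocytes on the log2 scale (FDR 0.000505 and 0.00118, edgeR). ER-associated degradation returns misfolded proteins to the cytosol. Of its 19 tested genes, 5 rose and 2 fell in MSCs, against 17.6% and 20.4% of all genes. In osteocytes 8 of the 19 rose and 2 fell, against 21.9% and 22% of all genes. With library size alone the counts were 4 and 3 in MSCs and 6 and 6 in osteocytes. Edem3 rose by 0.34 in MSCs and 0.48 in osteocytes. Ube2j1 and Nploc4 rose in MSCs (log2 0.43 and 0.32) and stood at 0.0008 and 0.03 in osteocytes (FDR 0.993 and 0.645, edgeR). Edem2 rose by 0.56 in osteocytes and stood at 0.11 in MSCs (FDR 0.133, edgeR), where it passed the test without genes that share exonic bases and without vehicle-treated MSC replicate 1 or vehicle-treated osteocyte replicate 1 or 2 (log2 0.13 to 0.16, FDR 0.0381 to 0.04998). Os9 rose by 0.43 in osteocytes and 0.14 in MSCs (FDR 1.88e-06 and 0.0273, edgeR), the latter call being lost with library size alone, with no filter and without FG-4592-treated MSC replicate 1 or 2 (log2 0.06 to 0.14, FDR 0.0869 to 0.368). Derl3 did not pass the filter.

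**Figure D4:**
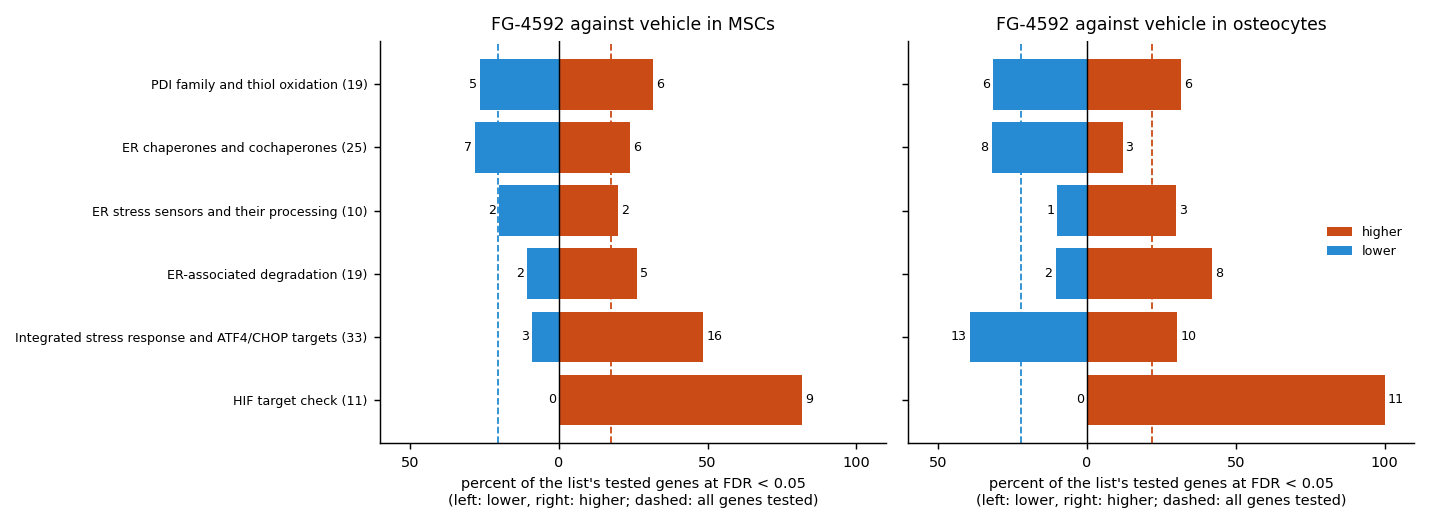
Share of each list's tested genes (number in brackets) that were higher (right) or lower (left) with FG-4592 at FDR under 0.05, with the number of genes at the bar ends; dashed lines give the shares of all 16484 genes. In the integrated stress response list 16 were higher and 3 lower in MSCs, and 10 were higher and 13 lower in osteocytes.

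The integrated stress response list, with ATF4 and CHOP targets, had different counts in the cell types. Of its 33 tested genes, 16 rose and 3 fell in MSCs, where 17.6% and 20.4% of all genes did. In osteocytes 10 of the 33 rose and 13 fell, where 21.9% and 22% of all genes did. With library size alone the counts were 14 and 5 in MSCs and 10 and 14 in osteocytes. In the test of the difference 6 had a higher and 14 a lower response in osteocytes, where 13.3% and 11% of all genes did. Slc7a11, the cystine importer, rose in MSCs from a mean of 0.144 to 3.12 CPM (log2 4.41, FDR 4.04e-06, edgeR), and stood at means of 0.238 and 0.464 CPM in osteocytes (FDR 0.144). The pseudokinase Trib3 rose in both cell types, from a mean of 0.853 to 8.41 CPM in MSCs (log2 3.30) and from 1.85 to 7.68 CPM in osteocytes (log2 2.05). Its difference between the cell types was -1.24 (FDR 0.0425, edgeR), a call lost on leaving out any of 7 libraries (log2 -1.29 to -0.84, FDR 0.0558 to 0.137): vehicle-treated MSC replicate 2, any FG-4592-treated MSC replicate, vehicle-treated osteocyte replicate 3 and FG-4592-treated osteocyte replicates 1 and 3. Vldlr, which is also a known HIF target, rose by 3.38 in MSCs and 4.86 in osteocytes, and the stress-induced regulator Nupr1 by 1.39 and 2.62. Phgdh, which opens serine synthesis, fell by 0.58 in MSCs and fell by 2.12 in osteocytes.

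The genes in this paragraph were chosen after their values were seen. Psat1 (serine synthesis) rose by 0.46 in MSCs and fell by 0.51 in osteocytes, with a difference of -0.97 (log2, FDR 2.43e-05, edgeR). Of the 5 aminoacyl-tRNA synthetase genes of the list, Aars, Nars and Gars rose in MSCs (0.15, 0.33 and 0.17) and fell in osteocytes (-0.63, -0.22 and -0.25). Sars rose in both (0.44 and 0.30), and Wars was at -0.01 in MSCs (FDR 0.895) and fell in osteocytes (-0.15, FDR 0.0182). In MSCs the calls of Aars (log2 0.07, FDR 0.307) and Gars (log2 0.09, FDR 0.231) were lost with library size alone. That of Aars was also lost with no filter (FDR 0.0719) and without FG-4592-treated MSC replicate 1 (log2 0.13, FDR 0.0909), and that of Gars without FG-4592-treated MSC replicate 3 (log2 0.13, FDR 0.113). The Wars call in osteocytes was lost without vehicle-treated replicate 3 (log2 -0.13, FDR 0.0671) or FG-4592-treated replicate 2 (log2 -0.13, FDR 0.0841), with no filter (FDR 0.0976) and with the 6 libraries compared (FDR 0.0631). Asns, asparagine synthetase, was at 0.02 in MSCs (FDR 0.818) and fell by 0.86 in osteocytes (FDR 3.02e-08). Ppp1r15a (GADD34), which reverses the block of translation, rose by 0.86 and 1.12, and Cebpb, a partner of ATF4 and CHOP, by 1.98 in osteocytes. In MSCs Cebpb was at 0.29 (FDR 0.25), and passed without vehicle-treated MSC replicate 2 (log2 0.63, FDR 0.00493). Fgf21 did not pass the filter.

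**Figure D5:**
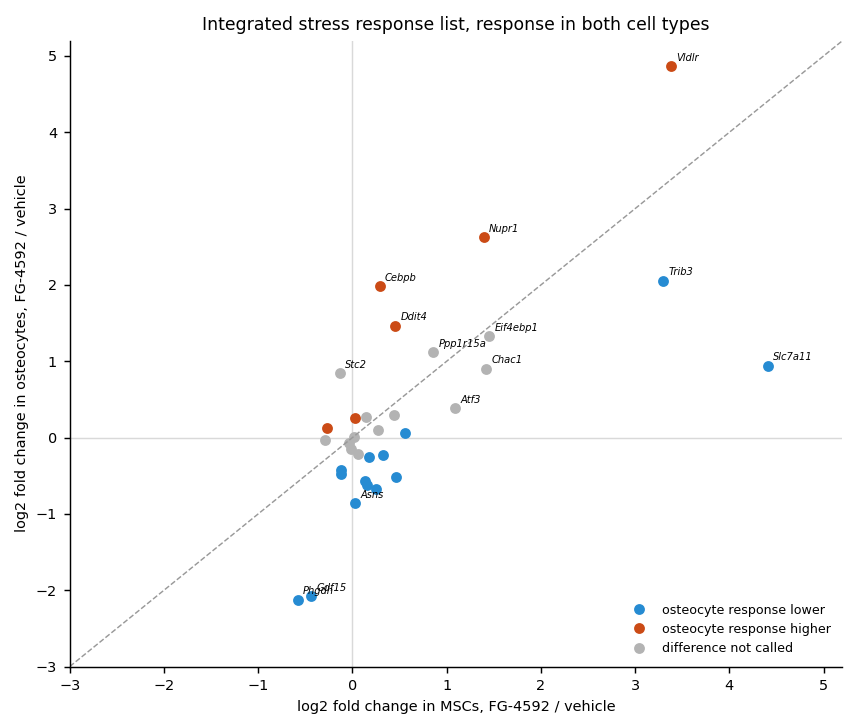
Log2 fold change with FG-4592 in MSCs (x) and in osteocytes (y) of the 33 tested genes of the integrated stress response list, coloured by the test of the difference; the dashed line marks equal responses, and genes beyond 0.8 in either are named. The 14 blue genes had a lower and the 6 orange genes a higher response in osteocytes.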

How the data were processed

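RNA of 12 MPC2 samples, 3 in each of 4 conditions, was sequenced as paired reads of 100 bases. Per the labels and the methods, the authors aligned reads to mm10 with STAR 2.7.2a and deposited raw counts per gene (Gencode M22) from featureCounts (Subread 1.6.2) at a mapping quality of 10. The labels and the methods name different releases of edgeR for the authors' own tests, which do not enter the deposited counts. The methods state that a pair was counted for every gene it overlapped. In the deposited counts, however, 70 of 70 genes (at least 100 bases, lying wholly inside the same-strand exons of a gene with over 5 counts per base) were at 0, so that reads in shared exons may be missing from both genes.

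The 16484 of 56350 genes that exceeded 10 counts in 3 or more libraries were fitted in edgeR 4.0.16 (R 4.3.3; TMM factors; quasi-likelihood test, two-sided, 8 residual degrees of freedom) on all 12 libraries, with 4 comparisons and their interaction, and the FDR (Benjamini-Hochberg) was taken across every gene in the fit. CPM used TMM-scaled library sizes, and levels were divided by exonic length for comparison between genes. The smallest p of an exact permutation test of 3 against 3 is 0.1, and none was used. The fit was also run on simulated data, and the outcome is not given here. Alternatives were the likelihood ratio test, DESeq2 1.42.0, RLE factors, library size alone, other filters, the 6 libraries compared, a replicate block, leaving out genes that share exonic bases (GenomicRanges 1.54.1) and leaving out each library. Figures used matplotlib 3.10.9.

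The 10 genes and all lists were chosen with earlier results of these data known. Outside the 10, the text names the 3 genes of each list and cell type with the largest called change (of genes whose condition of highest level averaged 100 counts or more), except for the HIF targets, which are only counted. It also names cell type markers, list genes that did not pass the filter, the 5 nearest genes by correlation, genes that share exonic bases, and genes marked as chosen after their values were seen.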

Additional observations from a re-analysis of the deposited data

Results flagged for a closer look

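The response to FG-4592 differed between the cell types for 2 of the 10 genes by the interaction term of edgeR's quasi-likelihood test. Among all genes 13.3% had a higher and 11% a lower response in osteocytes, so that a count of 2 is near the share of all genes. For Atf4 the osteocyte response was lower than the MSC response by a log2 difference of -0.37 (FDR 0.00325). For Ddit3 the difference was -0.48 (FDR 0.0489), and this call was lost with the replicate block and on leaving out any of 8 single libraries.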

How the results depend on the processing

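Of 1015 values of the 10 genes under the alternatives, 931 kept their direction and side of the threshold, 39 lost the call, 26 gained one and 19 changed sign. Of 748 values of the genes picked by rule (HIF targets included), in the cell type where the rule picked them, all 748 kept both. The rule took the largest called changes of that same comparison, so that this outcome was largely set by the choice of genes. Of 865 values of further genes and comparisons in the text, run after the values were seen, 794 kept both, 36 lost the call, 8 gained one and 27 changed sign. In 35 of 50 comparisons of the genes the call was the same in every fit without a single library, and in 30 both the call and the sign were. The causes of the changes below were not tested, except where fewer genes were tested.

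Without genes that share exonic bases only 5 of the 10 were left: 3 rose and 0 fell in MSCs, 0 fell in osteocytes, 5 were higher in osteocytes in vehicle and 4 in FG-4592, and 1 had a lower response in osteocytes. The count that fell in MSCs was 0 with the likelihood ratio test and the replicate block; that in osteocytes was 3 with library size alone and 0 with the 6 libraries compared. In FG-4592, 1 gene (Atf4) was lower in osteocytes under DESeq2, RLE factors, library size alone and the 6 libraries. The count with a higher response in osteocytes was 1 with no filter and 1 with the replicate block, which left 1 with a lower response. Library size alone gave 5 stress response genes lower in MSCs and a summed level of 3237 CPM in vehicle-treated MSCs (main value 3094); it moved the median of all genes by -0.09 in MSCs and -0.10 in osteocytes. Counts not divided by length lowered the Ero1l to Ero1lb ratio by the same factor in all 4 conditions, to 23.2 in vehicle and 215 in FG-4592 in MSCs, and to 13.2 and 134 in osteocytes.

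Without single libraries, 4 to 6 genes rose and 0 to 1 fell in MSCs, 3 to 4 rose and 0 to 2 fell in osteocytes, 10 were higher in vehicle-treated osteocytes, 8 to 9 were higher and 0 to 1 lower in FG-4592-treated osteocytes, and 0 to 2 had a higher and 1 to 5 a lower response in osteocytes. Of the stress response list, 14 to 17 rose and 3 fell in MSCs, 9 to 10 rose and 11 to 13 fell in osteocytes, and 5 to 7 had a higher and 13 to 18 a lower response in osteocytes.

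Signs that changed belonged to values that did not pass the test. With library size alone these were Pdia4 in MSCs (-0.045), Pdia6 in osteocytes (-0.086), Hspa5 in MSCs (-0.083) and Ddit3 in osteocytes (-0.047); Pdia6 in osteocytes was also -0.0025 under DESeq2 and -0.0026 under RLE factors, and Hspa5 in MSCs was -0.0057 with no filter. In MSCs Asns was -0.063 with library size alone, and Wars was 0.020 with the 6 libraries compared, 0.031 without genes that share exonic bases and -0.016 to 0.041 without single libraries. Ube2j1 in osteocytes was -0.0139 under DESeq2 and under RLE factors, -0.0977 with library size alone, -0.0123 without genes that share exonic bases and -0.0288 to 0.0257 without single libraries. With library size alone Nploc4 and Fkbp11 in osteocytes were -0.0664 and -0.0535, and they ranged from -0.0156 to 0.0521 and from -0.110 to 0.121 without single libraries. Fkbp14 in MSCs was 0.00457 with the 6 libraries compared and -0.0819 to 0.0179 without single libraries. Without single libraries the log2 fold change ranged from -0.054 to 0.0042 for Pdia3 in MSCs, -0.061 to 0.010 for Pdia4 in osteocytes, -0.051 to 0.067 for Pdia6 in osteocytes, -0.036 to 0.078 for Hspa5 in MSCs and -0.018 to 0.16 for Ddit3 in osteocytes.

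Replicate numbers gave no sign of pairing between the samples: of 18 same-numbered pairs, 0 had a correlation of deviations over 0.1 (-0.13 to 0.05). Low values cannot exclude pairing, and pairs with different numbers were not compared. With the numbers as a replicate block, the calls of Ero1lb (FDR 0.0714) and Pdia6 (FDR 0.0529) in MSCs and the Ddit3 difference (log2 -0.48, FDR 0.0697) were lost, and the Xbp1 difference (log2 0.28, FDR 0.0487) was gained.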
